A study of Rattus norvegicus with 23 samples.

Results

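The measurements described here are 3 two-colour arrays that compared lesioned with intact rat dorsal root ganglia (DRG) at 4 h after sciatic nerve transection, the earliest time of a series of 23 arrays. They were chosen by their time label. The other 20 arrays covered 8, 12, 18, 24, 48, 148 and 296 h, with 3 arrays at each time but the last, which had 2, and 1 of those was labelled 294 h in its time field. All animals were Long-Evans rats operated on at postnatal day 20 to 24, and L4 and L5 ganglia were collected. Lesioned RNA carried Cy5 and intact RNA carried Cy3 on every array. The labels also speak of cultured cells and cAMP, in conflict with their description of the surgery, and do not say whether the 3 arrays held separate animals or which animals gave the intact RNA. The p-values therefore measure the spread between arrays, which may be technical.

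Sensory neurons of the DRG send 1 axon branch into the peripheral nerve and 1 into the spinal cord. A cut of the peripheral branch is known to start a transcriptional response in the cell body, carried first by immediate early transcription factors such as Fos, Jun and Atf3 and later by growth-associated proteins, neuropeptides and cytokines. This response is studied as the conditioning lesion, after which the central branch regrows more readily. The comparison at 4 h shows which transcripts differed at the earliest time measured.

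All values are log2 of the deposited ratio of lesioned over intact ganglia, so 1 means a doubling and -1 a halving in lesioned ganglia. The direction was taken from the dyes in the labels. A ratio cannot tell a change in RNA per cell from a change in the number of cells of a type, and without intensities the presence of neuronal or glial transcripts could not be checked. No array exchanged the dyes, so a dye effect of a probe cannot be told apart from an effect of the lesion at a single time. Each probe at 4 h was therefore set against its mean over the other times, since a ratio that stays the same cancels in that difference. The 3 arrays measured 4997, 4991 and 4977 probes, and the standard deviation (SD) of their log2 ratios was 0.733, 0.638 and 0.685. Spearman correlations across probes were 0.234 to 0.296 among them and 0.143 to 0.386 with arrays of other times. Of the other arrays 6 were sparse, with 735 to 3025 probes missing. At the 51 Gapdh control spots the means at 4 h lay between -0.325 and 0.128, and 0 passed the test in limma (1 at an unadjusted p under 0.05).

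At 4 h, 28 of 5015 probes (0.558%) passed the threshold, an adjusted p under 0.05 in the moderated test of limma, with 11 higher (0.219%) and 17 lower (0.339%) in lesioned ganglia. An unadjusted p under 0.05 was found for 580 probes (11.6%). All 28 had the same sign on every 4 h array that measured them. They included genes for 2 mitochondrial subunits (Atp5me and Cox8a, higher), the epidermal growth factor receptor ligand Areg, the secreted lectin Reg3b and the inhibitor of apoptosis Birc3 (all lower). Most of the list did not belong to 4 h alone. In the mean of the other times, where 1398 of 4978 probes (28.1%) passed, 22 of the 28 passed with the same sign. The difference between 4 h and the other times passed for 1 of the 28, Birc3.

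The count of 28 depended on the arrays of other times, because they enter the estimate of the spread. With array weights it was 97 (1.93%), and with full arrays only it was 129. The 28 were among the calls in both cases. Of those larger counts, 66 of 97 and 76 of 129 also passed in the mean of the other times with the same sign.

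**Figure D1:**
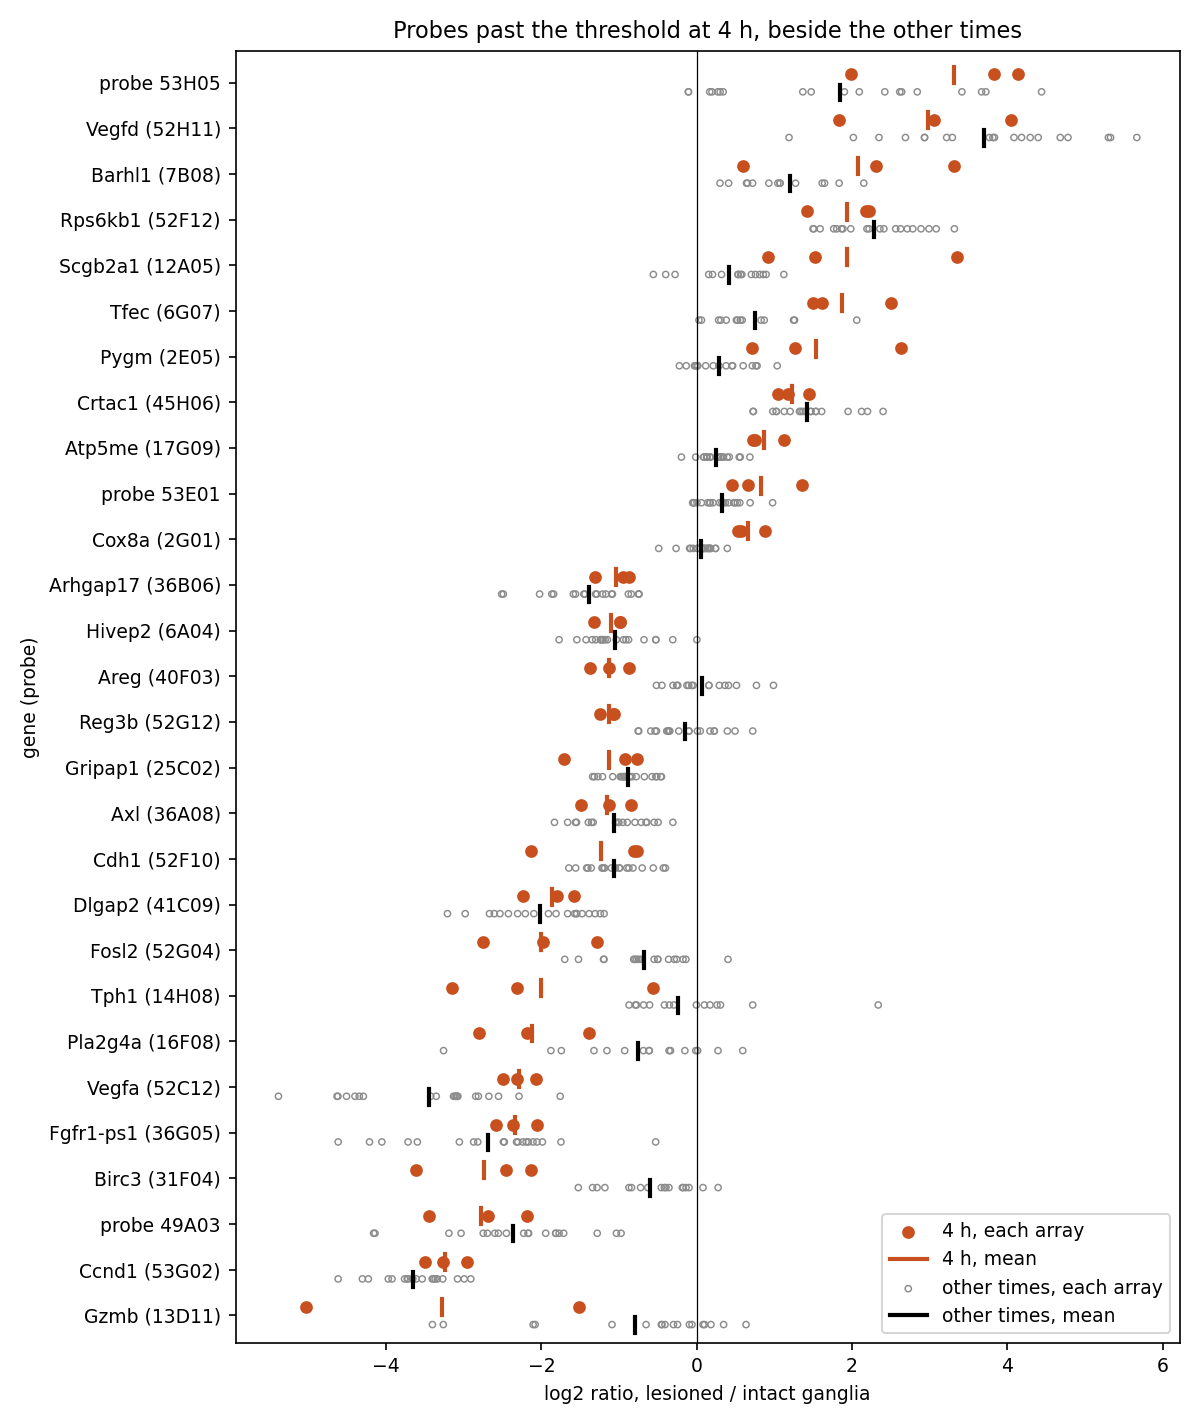
Log2 ratios of lesioned over intact ganglia (horizontal axis) for the 28 probes past the threshold at 4 h, 1 gene and probe per row. Orange points are the 3 arrays at 4 h (2 for Gzmb), grey circles are single arrays of the other times, and vertical bars are the means. For Vegfd and Ccnd1 the 4 h points fall within the grey circles, and for Birc3, Areg, Reg3b, Atp5me and Cox8a they lie outside. For Rps6kb1 the lowest 4 h point (1.43) lies just below the lowest grey circle (1.50).

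Birc3 encodes a ubiquitin ligase of the inhibitor of apoptosis family that acts in tumour necrosis factor receptor signalling. Its log2 ratios at 4 h were -3.61, -2.46 and -2.13, a mean of -2.73 ± 0.78 (SD, n = 3), 6.65-fold lower in lesioned ganglia (adjusted p = 0.000205, limma). On the 18 arrays of other times that measured it the ratio ran from -1.53 through a median of -0.44 to 0.28. All 4 h arrays lay below all others. The mean of the other times was -0.60 and the difference was -2.13, with a 95% interval of -2.82 to -1.44 (adjusted p = 0.0210, limma). From 8 to 24 h its means were -0.46, -0.47, -0.09 and -0.81. With full arrays only the difference was -2.28 but missed the threshold (adjusted p = 0.0691), and it missed it without replicate 1 (-1.69, adjusted p = 0.113) or replicate 2 (-2.27, adjusted p = 0.140). The effect at 4 h itself stayed past the threshold whichever of the 3 arrays was left out.

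For 6 of the 28 probes the mean of the other times did not pass, and 3 of them were higher and 3 lower at 4 h. Areg, the gene of amphiregulin, a ligand of the epidermal growth factor receptor, had -0.88, -1.37 and -1.13 at 4 h. Its 17 other arrays ran from -0.52 through -0.05 to 0.99, with no overlap. Its mean was -1.13 ± 0.25 (SD, n = 3; adjusted p = 0.0177, limma), and the difference from the other times, -1.20 (95% interval -1.67 to -0.72), did not pass the adjusted threshold (0.0593). The call at 4 h was lost without replicate 2 or 3.

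Reg3b, a secreted lectin of the regenerating islet-derived family that is induced in injured sensory neurons, stood at -1.25, -1.08 and -1.06 on probe 52G12. This is a mean of -1.13 ± 0.11 (SD, n = 3; adjusted p = 0.00326, limma), below all 20 other arrays, which ran from -0.75 to 0.72. The difference of -0.98 (95% interval -1.38 to -0.57) did not pass (adjusted p = 0.0593). Probe 32G07 of the same gene had -0.42, -0.63 and -0.59 at 4 h and a mean of 1.45 at the other times, with an adjusted p of 0.834 at 4 h. The probes thus had the same sign at 4 h and different levels later: at 48 h their means were -0.16 on 52G12 and 3.40 on 32G07. Averaged over both probes, Reg3b had -0.84 at 4 h and did not pass (adjusted p = 0.434, limma).

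Cox8a, a subunit gene of cytochrome c oxidase, had 0.88, 0.54 and 0.57 at 4 h, while its 20 other arrays ran from -0.49 to 0.39. Atp5me, a subunit gene of mitochondrial ATP synthase, had 1.12, 0.75 and 0.73 at 4 h, above its other arrays at -0.20 to 0.68. Neither gene's groups overlapped. The means at 4 h were 0.66 ± 0.19 and 0.87 ± 0.22 (SD, n = 3 each), or 1.58-fold and 1.82-fold higher. The differences from the other times were 0.60 for Cox8a and 0.62 for Atp5me, and neither passed (adjusted p = 0.287 for each, limma). Means of Cox8a over 8, 12, 18 and 24 h were 0.25, 0.14, 0.13 and 0.06. Without replicate 1 Atp5me lost its call at 4 h (adjusted p = 0.0693), and Cox8a lost it whichever array was left out.

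Complete separation of the 4 h arrays from all others occurred for 5 of the 28 probes (Birc3, Areg, Reg3b, Cox8a and Atp5me), against 13 of 4978 probes tested (0.261%). The test at 4 h and this separation use the same 4 h arrays.

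The remaining 3 of those 6 probes varied more between arrays. Scgb2a1, a secretoglobin gene, had 3.35, 1.52 and 0.92 at 4 h and a mean of 0.42 at the other times. Pygm, the muscle form of glycogen phosphorylase, had 2.63, 1.27 and 0.71, against 0.29 at the other times. Replicate 1 was the highest for both. Of 10 skeletal muscle markers 0 passed at 4 h, beside 0.558% of all probes, with a median of 0.24. Their part in the value of Pygm was not tested. Tph1, which makes the first enzyme of serotonin synthesis in peripheral tissues, had -3.15, -2.31 and -0.57, against -0.24 at the other times. Their adjusted p-values at 4 h were 0.0430, 0.0218 and 0.0482 (limma), and all 3 calls were lost without replicate 1 and without replicate 2.

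**Figure D2:**
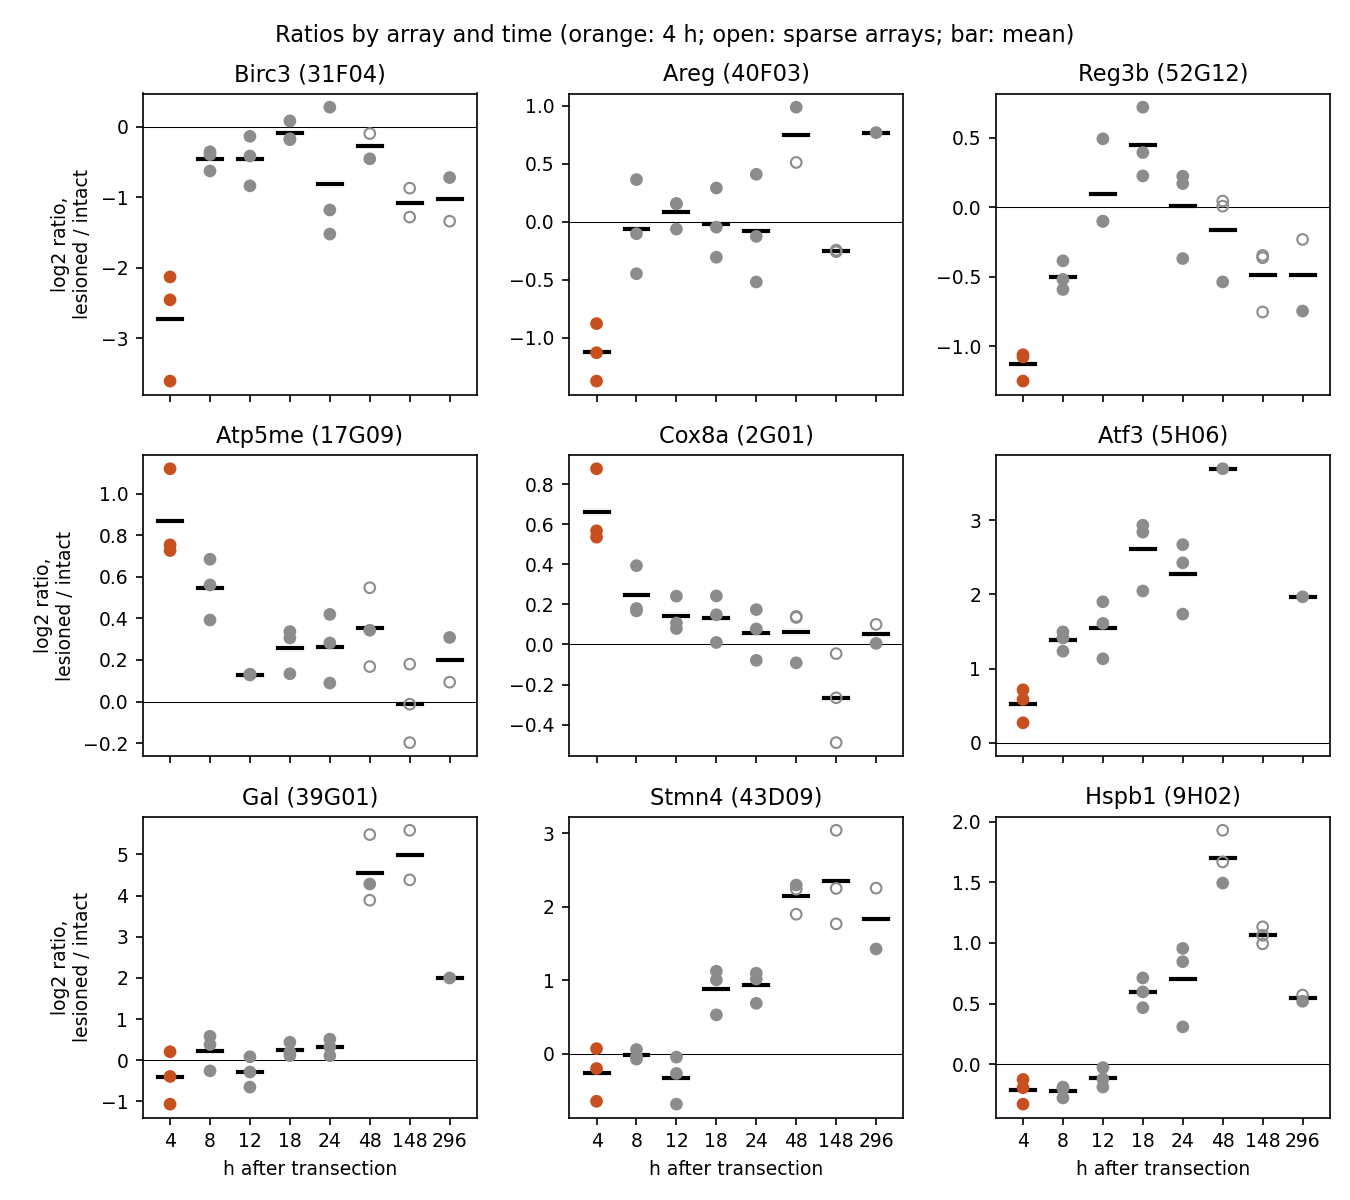
Log2 ratios of lesioned over intact ganglia (vertical axes, scaled per panel) on each array at 8 times after transection (horizontal axes, in h, evenly spaced) for 9 genes. Orange marks 4 h, open circles are sparse arrays and bars are means. Birc3, Areg and Reg3b (probe 52G12) lie lowest at 4 h and Atp5me and Cox8a highest, while Atf3, Gal, Stmn4 and Hspb1 reach their highest means at 48 h or later.

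Of the 22 probes that also passed in the mean of the other times, 9 had an unadjusted p under 0.05 for the difference in limma and 13 did not. Over all probes tested this held for 305 of 4978. The call at 4 h and the difference use the same 4 h arrays, so this split only orders the description. Among the 9, Birc3 is described above and Atp5me beside Cox8a. Fosl2, a Fos-related partner of Jun in the transcription factor AP-1, had -1.28, -2.76 and -1.98 at 4 h and a mean of -0.67 at the other times. The difference was -1.33 (95% interval -2.08 to -0.59, adjusted p = 0.375, limma). At 8 h Fosl2 averaged -1.21 and at 24 h -0.40. Without replicate 2 its call at 4 h was lost (adjusted p = 0.0728).

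Pla2g4a, the cytosolic phospholipase that releases arachidonic acid, had -2.19, -1.39 and -2.81 at 4 h, against -0.76 at the other times. Its mean at 148 h was -1.90, and the difference did not pass (adjusted p = 0.587, limma). Tfec, a transcription factor gene of the family of Mitf, had 1.61, 1.50 and 2.50, against 0.75. Gzmb, a protease gene of cytotoxic lymphocytes, was measured on 2 of the arrays with -1.52 and -5.03 on probe 13D11, against -0.80 at the other times. At 296 h this probe averaged -3.33 (2 arrays), near its 4 h mean of -3.27, and the difference did not pass (adjusted p = 0.375, limma). The other probes of Gzmb averaged -1.29 (13E12) and -0.05 (13A10) at 4 h, and neither passed. In the list for T and natural killer lymphocytes, which Gzmb entered by 13A10, no marker passed (14 tested, median -0.01), beside 0.558% of all probes.

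The 13 other probes had differences between -0.72 and 0.88, and for 9 of them the ratio was below 0. Ccnd1, the gene of cyclin D1, had the smallest p of all probes at 4 h, with -3.27, -3.49 and -2.96 on probe 53G02 and a mean of -3.24 ± 0.27 (SD, n = 3), 9.46-fold lower. At the other times the mean was -3.65, and single arrays ran from -4.62 to -2.91. The difference was 0.41 (95% interval -0.09 to 0.91). Rps6kb1, the gene of the p70 S6 kinase, had 2.18, 1.43 and 2.22 at 4 h and 2.28 at the other times. Vegfd, a growth factor gene for lymphatic and blood vessels, had 4.05, 1.83 and 3.05, against 3.70. Crtac1, which encodes a secreted matrix protein, had 1.45, 1.17 and 1.05, against 1.42.

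Further probes of this group were lower at all times. Dlgap2, a scaffold protein gene of synapses, averaged -1.87 at 4 h and -2.02 at the other times. Fgfr1-ps1, a pseudogene by its symbol, averaged -2.34 at 4 h and -2.69 at the other times. Axl, a receptor tyrosine kinase gene, averaged -1.16 against -1.07, the zinc finger gene Hivep2 averaged -1.10 against -1.05, and Arhgap17 averaged -1.04 against -1.39. Gripap1, which encodes a partner of a glutamate receptor adaptor, averaged -1.13 against -0.88. The homeobox gene Barhl1 was higher, with 3.32, 2.31 and 0.60 at 4 h, against 1.20 at the other times. Vegfa, the gene of the main vascular growth factor, was one of the 9 probes with a smaller p for the difference, and it lay closer to 0 at 4 h, with -2.07, -2.50 and -2.32 on probe 52C12 against -3.44. Its difference did not pass the threshold (1.15, 95% interval 0.38 to 1.92, adjusted p = 0.558, limma).

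**Figure D3:**
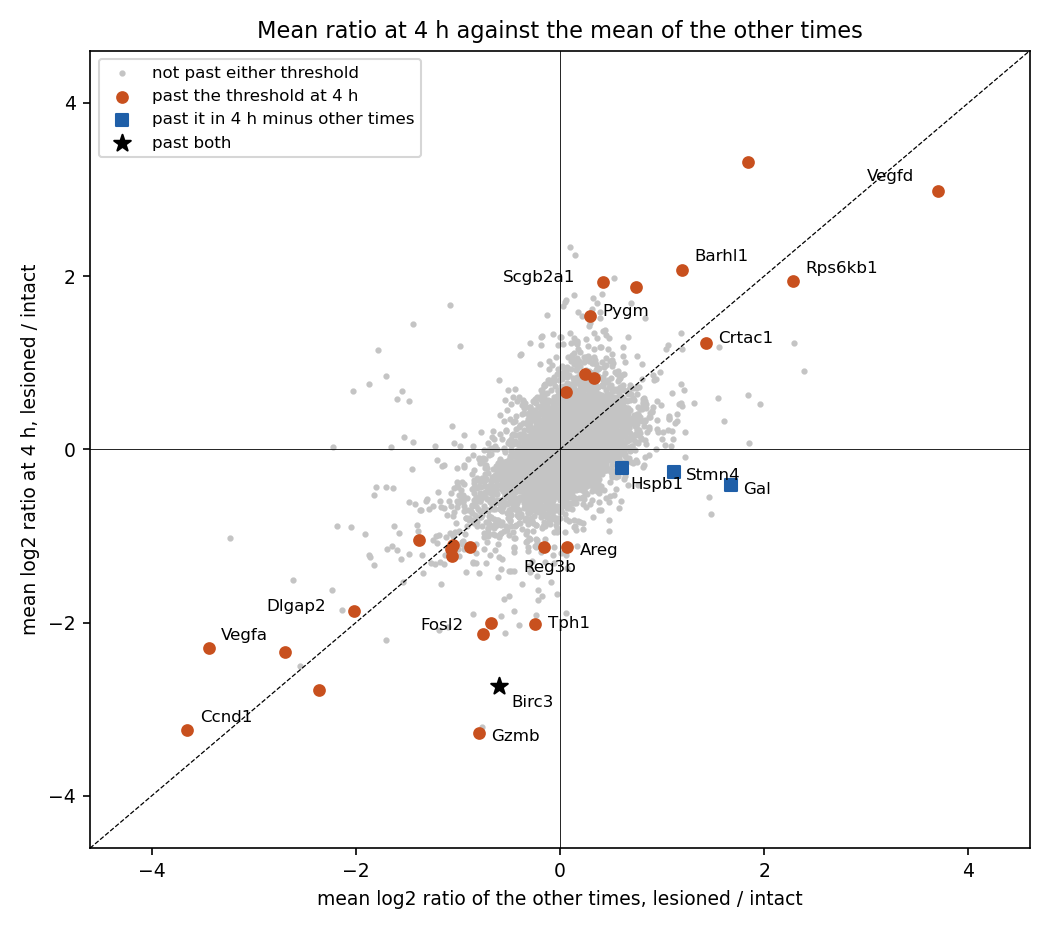
Mean log2 ratio at 4 h (vertical axis) against the mean of the other times (horizontal axis) for 4978 probes, with the line of equality dashed. Orange points passed at 4 h, blue squares passed in 4 h minus other times and the star, Birc3, passed in both. Ccnd1, Dlgap2, Crtac1 and Rps6kb1 lie near the line, and Areg and Reg3b (probe 52G12) lie at -1.13 on the vertical axis and close to 0 on the horizontal one.

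Where a gene of the 28 had another probe, that probe did not pass. Among the genes of the 28 probes, 7 had another measured probe, and of those 8 other probes 0 passed at 4 h (unadjusted p under 0.05 for Gzmb 13E12). Ccnd1 averaged -0.30 on probe 30F03, Vegfa 0.24 on 25C10, Vegfd -0.17 on 29H11, Rps6kb1 -0.26 on 34G05 and the cadherin gene Cdh1 0.06 on 33D07, where its probe 52F10 had -2.14, -0.77 and -0.80. The first number of a probe name was read as its plate. Plates 36, 52 and 53 held 12 of the 28 (42.86%), against 257 of 5015 probes tested (5.125%), and 11 of those 12 passed with the same sign at the other times. On all other plates 11 of 16 did. What sets these plates apart was not tested.

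**Figure D4:**
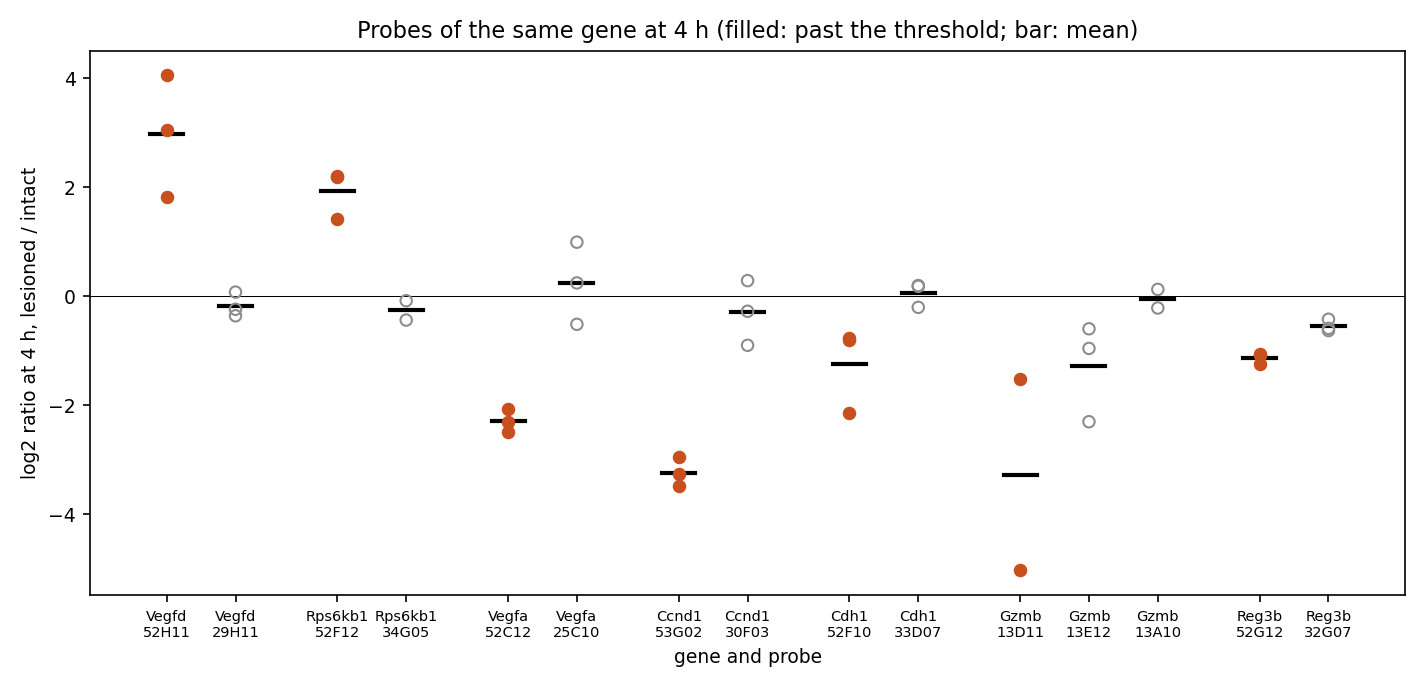
Log2 ratios of lesioned over intact ganglia at 4 h (vertical axis) on each array for the probes of 7 genes (horizontal axis). Filled points are probes past the threshold, open points are other probes of the same gene and bars are means. Ccnd1 averaged -3.24 on 53G02 and -0.30 on 30F03, and Vegfd averaged 2.98 on 52H11 and -0.17 on 29H11.

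Only 3 of the called probes carried no symbol. Probe 53H05 had 4.14, 1.98 and 3.83 at 4 h and a mean of 1.84 at the other times. Its means were 2.18, 2.33, 3.06 and 3.53 from 8 to 24 h, and 0.14 and 0.16 at 48 and 148 h. Probe 49A03 had -3.44, -2.19 and -2.69, against -2.37. Probe 53E01 had 1.36, 0.45 and 0.67, against 0.33, and its mean at 296 h (0.83) was close to that at 4 h (0.82).

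The difference between 4 h and the other times passed for 4 of 4978 probes (0.0804%), all with lower values at 4 h, and 305 had an unadjusted p under 0.05 (147 higher, 158 lower). Besides Birc3 they were Gal, Stmn4 and Hspb1, whose ratios at 4 h did not pass and whose means at the other times were above 0. Gal, the precursor gene of the neuropeptide galanin, had 0.21, -1.06 and -0.39 at 4 h and a mean of 1.67 at the other times, a difference of -2.09 (95% interval -2.78 to -1.40, adjusted p = 0.0210, limma). Its means were 0.24, -0.28, 0.25 and 0.32 from 8 to 24 h and 4.55 and 4.98 at 48 and 148 h. The 4 h arrays overlapped those of 8 to 24 h.

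Stmn4, a stathmin gene whose product binds tubulin, had -0.20, -0.65 and 0.07 at 4 h, against 1.11 at the other times (difference -1.38, adjusted p = 0.0313, limma). Its means were -0.02 and -0.34 at 8 and 12 h, and 0.88 at 18 h. Hspb1, a small heat shock protein gene linked to neuron survival, had -0.19, -0.33 and -0.13 on probe 9H02, against 0.61 at the other times (difference -0.83, adjusted p = 0.0453, limma). Means of this probe were -0.22 and -0.11 at 8 and 12 h and 0.59 at 18 h. Probe 52D12 of Hspb1 had 0.07, -0.12 and 0.15 at 4 h, against 0.70 (adjusted p = 0.541). Compared with 8 to 24 h alone, the differences of Gal (-0.55), Stmn4 (-0.63) and Hspb1 (-0.46) did not pass. Stmn4 and Hspb1 lost the call whichever 4 h array was left out, and Gal without replicate 2 or 3.

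Atf3, the injury-induced transcription factor gene, was above 0 on each array at 4 h with 0.71, 0.27 and 0.58, a mean of 0.52 ± 0.23 (SD, n = 3; 95% interval of the fit 0.03 to 1.01), and did not pass (adjusted p = 0.411, limma). The 4 h arrays lay below all 14 other arrays that measured it. At 8 h its mean was 1.38, at 12 h 1.55 and at 18 h 2.61. The difference of -1.43 did not pass (adjusted p = 0.0593). Npy, the gene of neuropeptide Y, averaged 0.07 at 4 h and 1.85 at the other times (difference -1.78, adjusted p = 0.144). Gadd45a, a gene of the stress response to DNA damage, had -0.42, 0.23 and -0.06 at 4 h, against 1.22 at the other times.

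Immediate early and AP-1 genes were described by a list of 48, of which 32 were tested. Fos and Jun are not among the genes with values here, so the counts say nothing of them. Of the 32 tested, 0 were higher and 1 was lower (Fosl2, by a probe of plate 52), beside 0.219% and 0.339% of all probes. An unadjusted p under 0.05 in limma was found for 6 of the 32, 3 of them higher, beside 11.6% of all probes. The median was 0.12, beside 0.03 over all probes tested. The upper end of the 95% interval was below 1, a doubling, for 23 of the 32. The share of all probes with such an interval was not counted. This limit holds for the array ratio only, since the authors describe a smaller dynamic range for two-colour arrays than for quantitative PCR. Egr1, a zinc finger factor induced by neuronal activity, had -0.11, 0.29 and -0.23, and Junb, a partner of Fos in AP-1, had -0.90, 0.00 and 1.26. Egr2 averaged 0.36, Egr3 0.11 and Egr4 0.68, while the orphan receptor genes Nr4a1 and Nr4a2 averaged -0.40 and -0.43. Arc, an activity-regulated synaptic gene, had 0.23, 0.79 and 0.71 (adjusted p = 0.467), and Myc had -1.33, -0.12 and -1.22 (adjusted p = 0.360).

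Other transcription factors of this list were Atf4 (0.29), Klf4 (0.12), Klf6 (0.55), Klf10 (0.47), Nfil3 (-0.07) and Fosl1 (0.55), the last with 1.62, 0.13 and -0.10. The phosphatase genes Dusp1, Dusp5 and Dusp6, which restrain MAP kinases, averaged -0.37, -0.41 and 0.02. Ptgs2, the inducible cyclooxygenase gene, averaged -0.61, Zfp36, which shortens the life of cytokine mRNA, 0.48, and Ccn1, a matrix signalling gene, -1.11. Further probes of this list differed from these values: Atf4 averaged -0.41 on 7D01 and Ptgs2 averaged -2.12 on 52D03 (2 arrays), and neither passed. Btg1, Homer1, Sgk1, Rgs2, Plk2, Plk3 and Nrn1 lay between -0.10 (Sgk1) and 0.40 (Rgs2 and Nrn1). Plaur, the receptor gene of urokinase, had -0.03, 1.95 and 1.56, so replicate 1 stood apart. It passed with array weights (adjusted p = 0.0156, limma) and not with equal weights (0.0886).

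Cytokine and chemokine genes numbered 42, and 0 passed in either direction, with a median of 0.04 and 4 at an unadjusted p under 0.05, beside 0.558% and 11.6% of all probes tested. At that share a list of this size need not hold a called gene. The interval lay below a doubling of the array ratio for 31 of them, again without a count over all probes. Il6, the neuropoietic cytokine gene, had -0.16, -0.18 and -0.51, Il1b had -0.91, 0.01 and -0.28, and Tnf had 0.34, -1.43 and -0.44. Ccl2, which attracts monocytes, averaged 0.50 on probe 26C01 and 0.14 on 52C04 at 4 h, while at 8 h these probes averaged 1.66 and 0.99. Cxcl1, a neutrophil attractant, had 2.39, -0.94 and 0.79, the largest SD of the 42, and Cx3cl1, the neuronal chemokine, had 0.80, 1.07 and 0.73 (adjusted p = 0.278).

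With array weights 3 members passed: Il3 was higher (1.54, 1.50 and 0.98) and Csf1 (-0.74, -0.84 and -0.94) and Tgfb3 (-1.11, -0.92 and -1.11) were lower. Their means at the other times, 1.19, -0.70 and -1.24, had the same signs, and all 3 probes were on plate 52. Another probe of Il3, 26B07, averaged -0.43 at 4 h. Il1b averaged 0.29 on probe 25H04, where the values above came from 52A11. The other interleukin genes ranged from Il13 (-0.36) to Il12b (0.47), interferon genes Ifng and Ifnb1 averaged 0.64 and 0.48, and colony-stimulating factors Csf2 and Csf3 -0.16 and -0.07. Chemokines Ccl3, Ccl4, Ccl5, Ccl11, Ccl20, Cxcl2, Cxcl3, Cxcl10, Cxcl12 and Xcl1 lay between -0.49 (Xcl1) and 0.31 (Ccl4 and Ccl20). Adhesion genes Icam1, Vcam1, Sele and Selp averaged -0.41, 0.20, 0.06 and 0.26, and Nfkbia, the inhibitor induced by NF-kappaB, averaged 0.12, with Nfkb1 at 0.29. Mif, Spp1, Tgfb1 and Tgfb2 averaged 0.15, -0.21, -0.35 and -0.60, with second probes of Tgfb1 (1A07) at 0.19 and Tgfb2 (52D10) at -0.71.

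Of the 15 genes for gp130 cytokines, their receptors and the Stat3 pathway, 0 passed in limma (1 at an unadjusted p under 0.05). This stands beside 0.558% and 11.6% of all probes tested, and at that share a list of 15 need not hold a called gene. The median was 0.00. Socs3, the feedback inhibitor that Stat3 induces, had 1.60, 0.34 and 0.23, a mean of 0.72 (adjusted p = 0.329, limma). Lif, a neuropoietic cytokine gene, averaged -0.27 on 52C06 and 1.29 on 26D11. The signal transducer gene Il6st, measured on 2 arrays, had 0.28 and -0.27, its ligand receptors Il6r, Lifr and Cntfr averaged -0.34, 0.56 and -0.54, and the ligand genes Cntf and Ctf1 averaged 0.38 and 0.21. Stat3 averaged -0.02, Jak1 0.14, Jak2 -0.26, Socs1 0.02, Socs2 0.12 and Pias3 -0.38.

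**Figure D5:**
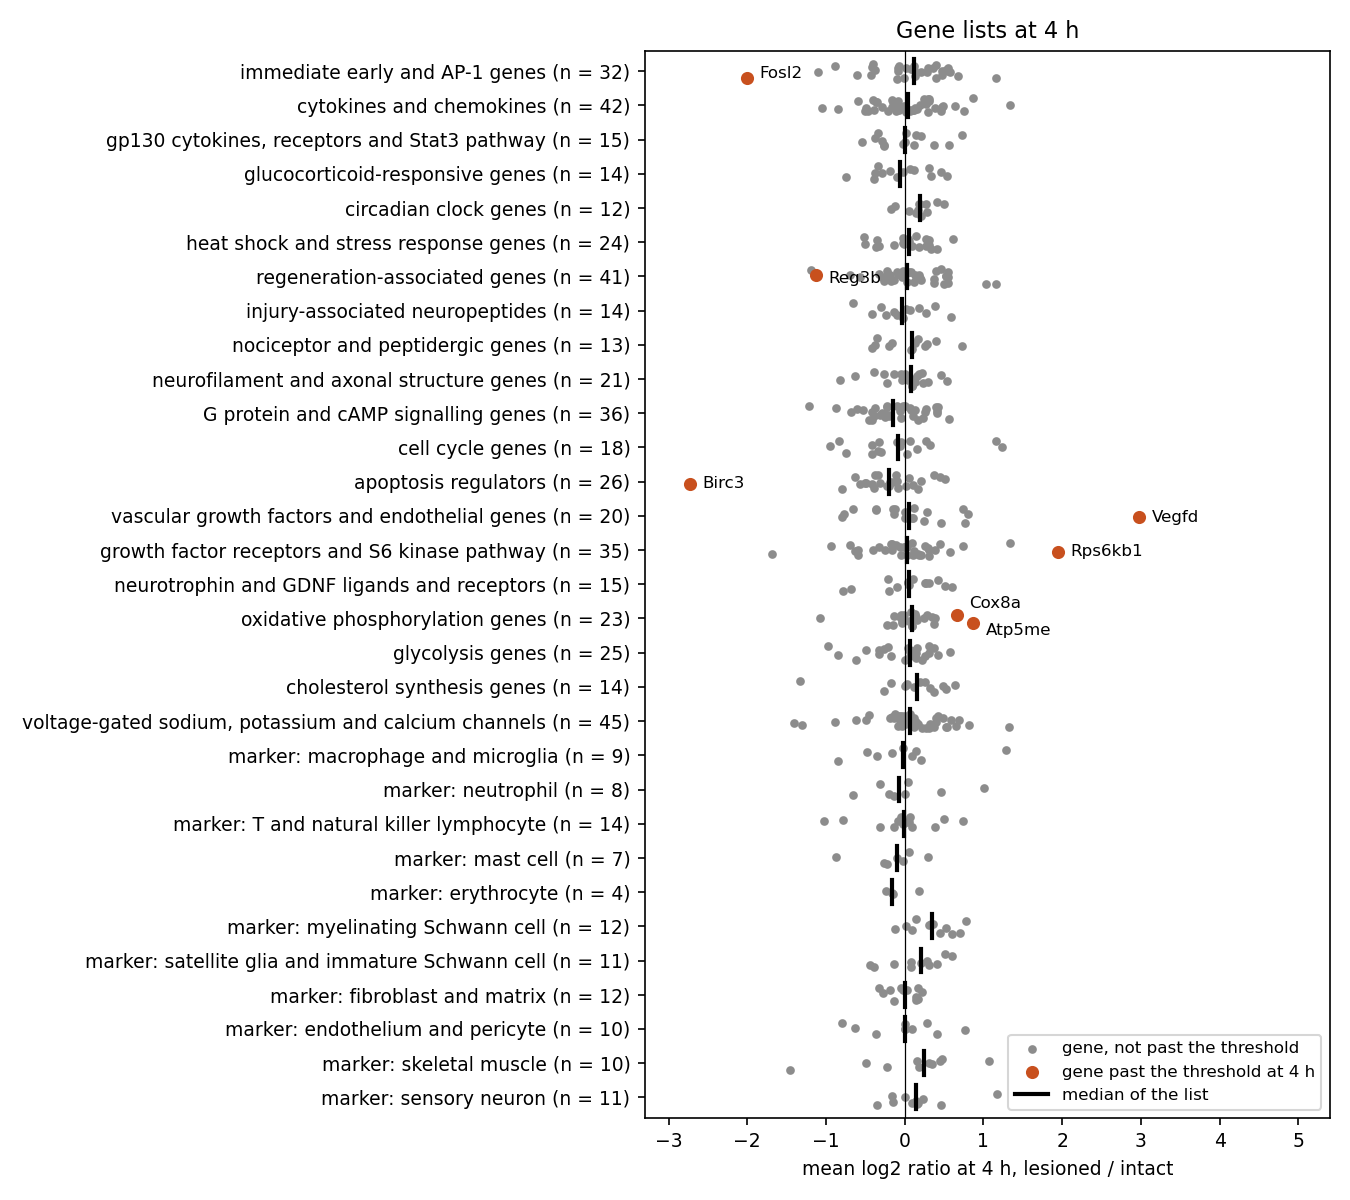
Mean log2 ratio of lesioned over intact ganglia at 4 h (horizontal axis) of each gene in 20 lists and 11 marker lists (rows, with the number of genes tested). Orange points passed the threshold, grey points did not, and black bars are list medians. The 7 genes past the threshold are named, and the list medians lie between -0.20 and 0.35.

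Across the 20 lists 7 of 458 genes passed (Fosl2, Reg3b, Birc3, Vegfd, Rps6kb1, Atp5me and Cox8a), beside 0.558% of all probes. A gene entered a list by 1 probe, so these counts leave out Ccnd1 (cell cycle, entered by 30F03), Vegfa (vascular, by 25C10) and the marker gene Gzmb (by 13A10), which were called on another probe. Of the 7, Fosl2, Reg3b, Vegfd and Rps6kb1 entered by probes of plate 52. Plates 36, 52 and 53 held 42.86% of the 28 calls and 5.125% of the probes tested. Oxidative phosphorylation genes had 2 of 23 higher and 0 lower, with a median of 0.10. Their other members ran from Atp5f1b (-1.08), whose mean at the other times was -0.96, to Atp5pb (0.39). Of 41 regeneration-associated genes 0 were higher and 1, Reg3b, was lower, with a median of 0.03, and the keratinocyte gene Sprr1a, known from axotomized neurons, had -1.27, -1.02 and -1.28 (adjusted p = 0.136, and -0.82 at the other times). With array weights Sprr1a, the adenylyl cyclase gene Adcy2 (mean -1.22) and the growth factor genes Egf (-1.69) and Igf2 (-0.94) were also lower. So was the potassium channel gene Kcnd1 (-0.88). All of them also passed with the same sign in the mean of the other times. Those means were -1.35 for Adcy2, -0.50 for Egf, -0.55 for Igf2 and -0.77 for Kcnd1. The probes of Sprr1a, Adcy2 and Igf2 were on plate 52. Other probes of Adcy2 (20A02) and Igf2 (37F04) averaged 0.20 and -0.29. Apoptosis regulators had 1 of 26 lower, Birc3, with a median of -0.20. Neuropeptide (14 tested), nociceptor (13), heat shock (24), neurofilament and axonal (21), channel (45), glycolysis (25), cholesterol (14), clock (12), glucocorticoid (14), cell cycle (18), cAMP signalling (36) and neurotrophin (15) genes had 0 past the threshold in limma (24 of 244 at an unadjusted p under 0.05, each gene counted once, beside 11.6% of all probes), with medians from -0.15 to 0.19.

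No marker list had a gene past the threshold at 4 h in limma by the probes chosen, beside 0.558% of all probes. Of 108 markers 11 had an unadjusted p under 0.05, beside 11.6% of all probes. The medians were -0.02 for 9 macrophage and microglia genes, -0.07 for 8 neutrophil genes, 0.01 for 12 fibroblast genes and 0.00 for 10 endothelial genes. Myelinating Schwann cell genes had the highest median, 0.35, with 11 of 12 above 0, beside 2656 of 5015 probes tested. Their values reached 0.78 (Gjb1, a gap junction gene of myelin, with 0.60, 0.81 and 0.93). At the other times their median was 0.30 and 7 of the 12 passed with higher values, beside 15.4% of all probes. Sensory neuron markers had a median of 0.15 over 11 genes. The macrophage lysozyme gene Lyz2 had -0.25, -0.59 and -1.70, a mean of -0.85, and passed with array weights (adjusted p = 0.0487, limma) but not with equal weights.

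Single arrays weighed on these calls. Replicate 1 was furthest from 0 for 15 of the 28 probes, replicate 2 for 7 and replicate 3 for 6. In fits without 1 of the 3 arrays, 15, 12 and 11 of the 28 lost the threshold. The 9 that passed in all of these fits were Ccnd1, Birc3, Rps6kb1, Fgfr1-ps1, Vegfa, Reg3b, Dlgap2, Crtac1 and probe 49A03. Of them Birc3 and Reg3b (probe 52G12) had 4 h arrays that overlapped none of the other arrays.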

How the data were processed

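RNA of L4 and L5 ganglia was hybridised to spotted oligonucleotides with dendrimer labelling. The authors deposited 1 linear ratio of the 2 channels per probe and array. How the images were scanned, background-corrected and normalized is not given in the sources used here. Intensities were not analysed, so spots near background could not be recognised, and precision is limited by how many arrays there are. Ratios were converted to log2 without an offset. Of 5088 probes, 4423 had 1 gene symbol, 2 had several and 663 had none, and 4375 matched the reference table by Entrez ID.

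A mean for each of the 8 times was fitted over all 23 arrays with limma 3.58.1 in R 4.3.3, with equal weights and a variance moderated over the 5015 probes measured on at least 2 arrays at 4 h. The two-sided tests were 4 h against 0, the mean of the other times against 0, and 4 h minus that mean. The last 2 used 4978 probes with at least 2 arrays at 4 or more other times, each such time counting equally. The Benjamini-Hochberg adjustment was made over all probes tested (threshold 0.05), and all adjusted p-values come from this model unless named otherwise. The SD in the text is that of the arrays themselves, and intervals come from the moderated fit. The fit was tested on simulated data.

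Probes were named if they passed at 4 h or in the difference, if they belonged to the lists of immediate early, cytokine or gp130 genes, or, for other lists, if they passed with equal or array weights (up to 4 per list). Other probes of genes so named were added. Atp5f1b, Atp5pb, Gjb1 and Vom2r32 were named after their values were seen, as was Tmprss11d. A gene with several probes counted once in a list, by the probe on most arrays. The arrays, lists and tests were chosen with earlier results of these data known. Alternatives were median centring, scaling to an equal median absolute log2 ratio, array weights, robust variance, subsets of arrays, times, probes and plates, the replicate number as a block, probes averaged by gene, and the t-test that the methods name for other measurements. Arrays with more than 200 missing probes were called sparse (6 arrays) and the others full (17 arrays). Figures were drawn with matplotlib 3.10.9.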

Additional observations from a re-analysis of the deposited data

Results flagged for a closer look

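The ratio at 4 h differed from the mean of the other times, by the test of that difference, for 4 probes. Birc3 stood 2.13 below the other times on the log2 scale (-2.1309), Gal differed by -2.0913, Stmn4 by -1.3752 and Hspb1 (probe 9H02) by -0.82539. For Birc3 the mean at the other times was also below 0 (-0.60) and the 4 h arrays lay further from 0. For Gal the means from 48 h on were the high ones, and Stmn4 and Hspb1 were above 0 on all arrays from 18 h on. None of these 3 differences passed against 8 to 24 h alone (-0.55, -0.63 and -0.46). No probe of another gene than these passed in the difference with equal weights over all arrays.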

How the results depend on the processing

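Median centring, array weights, full arrays only and only arrays at 4 to 24 h kept the calls of all 28 probes. The last 2 of these are in effect 1 fit. Full arrays leave a single array at 48 h and at 296 h, which adds nothing to the spread or to the mean of the other times. Scaling kept 26 calls (not Vegfd and Vegfa) and robust variance 27 (not Tph1). Averaging probes by gene kept 19 of 25 calls with a symbol. It lost Reg3b (-0.84, adjusted p = 0.434, limma), Vegfd (1.40, 0.118), Rps6kb1 (1.12, 0.0584), Cdh1 (-0.59, 0.149), Gzmb (-1.30, 0.118) and Tph1 (-2.01, 0.0510). No alternative turned a called direction. Vegfa, called on probe 52C12 and not on 25C10 (0.24), had -1.03 as the average of both (adjusted p = 0.0181, limma). The count at 4 h, 28, was 86 with scaling, 97 with array weights and 129 with full arrays only, or in effect the same fit, 4 to 24 h. It was 10 without plates 36, 52 and 53, 20 to 21 without single arrays, and 0 with only the 3 arrays at 4 h (618 at an unadjusted p under 0.05, smallest adjusted p 0.0617). The methods' t-test gave 438 at an unadjusted p under 0.05 and 0 after Benjamini-Hochberg adjustment (smallest adjusted p 0.347). In the difference, 4 probes became 1 with scaling, 8 with array weights (also Npy, Areg, Reg3b and Tmprss11d), 7 with probes on all arrays up to 24 h and 0 with full arrays or with 4 to 24 h alone. They became 2 against 8 to 24 h (Birc3 and Reg3b) and 0 to 3 without single 4 h arrays. Without replicate 1, Plaur (1.58) and Vom2r32 (2.81) passed with higher values at 4 h, beside Gal. Without single other times the count ran from 1 (without 48 h or 148 h) through 2 (without 296 h) and 7 (without 12 h) to 9 (without 8 h). The mean of the other times, 1398, was 823 with full arrays or with 4 to 24 h. Probes past both tests, 1, were 3 with array weights, 3 with probes on all arrays up to 24 h, 0 with full arrays or 4 to 24 h, 2 against 8 to 24 h, 0 to 2 without single 4 h arrays and 1 to 3 without single other times (3 without 8 h). List genes past the threshold, 7, were 13 with scaling, 16 with array weights, with full arrays and with 4 to 24 h, and 2 without the 3 plates. The causes were not tested, except that fewer probes or arrays enter some fits. Replicate numbers did not pair the arrays: deviations of same-numbered arrays correlated at -0.141 to 0.117, and 1 of the 3 arrays at 4 h matched its own number best. With the replicate block the counts were 22 at 4 h, 4 in the difference and 2 past both (Birc3 and Areg). Those in the difference were Birc3, Gal, Areg and Atf3, without Stmn4 and Hspb1.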
